A study of Homo sapiens with 6 samples.

Results

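The GIMAP genes (GTPases of the immunity-associated protein family) sit side by side on chromosome 7, and 7 of them were taken as 1 cluster: GIMAP1, GIMAP2, GIMAP4, GIMAP5, GIMAP6, GIMAP7 and GIMAP8. They were selected on measured values of these libraries, namely their levels and their knockdown over control ratios, so those values are given below as a description with no test. Of the 34114 genes in the table, 6 were members matched by symbol, and GIMAP7, the read-through gene GIMAP1-GIMAP5 and the pseudogene GIMAP3P were not analysed here. All 6 passed the filter used for the whole table, a mean normalized count of at least 10. GIMAP4 passed it only through the NOMO-1 knockdown library, with 142 normalized counts there and at most 8.26 in any other. The libraries were messenger RNA of 3 acute myeloid leukaemia cell lines, MOLM-14, NOMO-1 and SKM-1, each sampled 72 h after transfection with either an shRNA against NCAM1 (the knockdown, 3 libraries) or a scrambled shRNA (the control, 3 libraries). NCAM1 encodes the adhesion molecule CD56. There was 1 library per line and condition, each group therefore mixes lines of different donors, and no replicate exists within a line. No other genetic change or agent is given in the labels for any group. The deposited column header of the SKM-1 knockdown library carries a suffix on the shRNA name that those of MOLM-14 and NOMO-1 lack, with no meaning given.

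GIMAP proteins are guanine nucleotide-binding proteins that share a G domain related to that of septins, and some of them anchor to intracellular membranes. They are best known from lymphocytes, where loss of Gimap1 or Gimap5 in mice, or of Gimap5 in rats, depletes T cells or B cells. The human genes lie in a single array, with GIMAP6 on the opposite strand to the other members measured here. In the GENCODE 29 annotation, 30.7% of the exonic bases of GIMAP5 and 11.3% of those of GIMAP1 are shared with other GIMAP genes through the read-through transcript, so the counts of these 2 genes are uncertain. The other 4 members measured share none. The library kit does not mark strand, and the sources used here do not give the strand setting of the counting.

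Promoters of 3 members are shown because these genes carried the widest differences, GIMAP4 and GIMAP6, and the opposite directions between lines, GIMAP2. Each run is 250 bases before to 50 after the RefSeq start site, 5′ to 3′ on the gene's strand, build GRCh38.p14, at chr7:150567140-150567439 (plus strand) for GIMAP4, chr7:150632336-150632635 (minus strand) for GIMAP6 and chr7:150685456-150685755 (plus strand) for GIMAP2. Capitals mark GGAAGT or its reverse complement ACTTCC, the core letters of ETS family motifs.
GIMAP4: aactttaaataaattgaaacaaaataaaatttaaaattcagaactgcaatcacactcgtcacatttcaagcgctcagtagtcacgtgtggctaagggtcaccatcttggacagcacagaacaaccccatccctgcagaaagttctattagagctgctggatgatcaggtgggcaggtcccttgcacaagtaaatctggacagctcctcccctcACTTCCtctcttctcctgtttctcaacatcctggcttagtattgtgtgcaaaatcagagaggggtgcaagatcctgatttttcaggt
GIMAP6: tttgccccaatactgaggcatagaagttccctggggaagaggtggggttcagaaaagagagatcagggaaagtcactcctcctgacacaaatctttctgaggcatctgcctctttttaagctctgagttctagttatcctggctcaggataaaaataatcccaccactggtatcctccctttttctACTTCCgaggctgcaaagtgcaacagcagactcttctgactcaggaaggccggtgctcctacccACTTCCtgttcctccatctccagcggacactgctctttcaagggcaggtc
GIMAP2: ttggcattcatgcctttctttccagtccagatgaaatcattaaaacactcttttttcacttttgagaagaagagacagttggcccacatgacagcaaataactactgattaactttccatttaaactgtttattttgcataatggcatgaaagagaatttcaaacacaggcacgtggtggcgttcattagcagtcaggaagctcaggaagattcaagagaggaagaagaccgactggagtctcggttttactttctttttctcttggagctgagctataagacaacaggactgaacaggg
The ETS letters stood at position -37 in GIMAP4 and at positions -64 and 0 in GIMAP6, counting the start site as 0, and were not in the GIMAP2 window. Over the 7 GIMAP promoters in RefSeq, 4 held them (GIMAP4, GIMAP5, GIMAP6 and GIMAP8), against 22.8% of all 35116 promoters of the same length. On both strands, the E-box letters CACGTG were in the GIMAP2 and GIMAP4 windows (7.26% of all promoters) and the TATA letters TATAAA in that of GIMAP7 (11.5%). The RUNX letters TGTGGT (13.1% of all promoters) and the STAT letters TTCNNNGAA (7.66%) were in 0 of the 7. There were 0 overlaps between hits of different motifs in these windows. These matches describe the letters and do not show that a factor binds there.

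The libraries held 41916991 to 47688779 reads assigned to genes, so 1 read was worth 0.912 to 1.115 normalized counts. NCAM1 was lower in the knockdown library of each line, with 1896 against 6004 normalized counts in MOLM-14, 312 against 1163 in NOMO-1 and 101 against 12537 in SKM-1. The SKM-1 pair stood apart in how widely it differed: 15.7% of the 19575 tested genes were at least 2-fold higher in its knockdown library and 16.5% at least 2-fold lower, on the log2(normalized count + 1) scale. The same shares were 3.56% and 4.03% in MOLM-14 and 4.06% and 7.42% in NOMO-1. Over all 3 lines, limma called 0% of genes at an adjusted p under 0.05, with 877 at an unadjusted p under 0.05. On recovered reads, edgeR called 0 and DESeq2 43. Myeloid markers were read in every library but not evenly, with CD33 between 1764 and 3837 normalized counts, the myeloid transcription factor SPI1 between 4791 and 9577, and 0 of the 16 listed myeloid markers at 0 reads. CD68 and CD14, both monocyte and macrophage markers, were low throughout, at 0.918 to 10.4 and 3.05 to 27.4, and S100A8 had 36.5 against 64.7 in MOLM-14.

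Summed over the 6 members, GIMAP normalized counts, which weight long transcripts more, were highest in MOLM-14 and lowest in SKM-1. The sum was 1590 normalized counts in the knockdown library against 1297 in the control library of MOLM-14, 962 against 591 in NOMO-1, and 439 against 501 in SKM-1. The lines did not overlap in these summed counts. Per kilobase of longest transcript, NOMO-1 and SKM-1 did overlap. That sum was 377 in the knockdown library and 228 in the control library of NOMO-1, and 224 and 306 in SKM-1. It was 715 and 562 in MOLM-14. The knockdown over control ratio of the summed counts was 1.23 in MOLM-14 (95% interval 1.14 to 1.32) and 1.63 in NOMO-1 (1.47 to 1.7998), and for SKM-1 it was 0.876 (0.771 to 0.996). Intervals here are exact and conditional on the reads of a pair, and cover counting error only. In MOLM-14, 5 members were higher in the knockdown library and GIMAP4 had 0 reads in both. In NOMO-1, 5 were higher and GIMAP8 was lower. In SKM-1, GIMAP4, GIMAP6 and GIMAP8 were higher and GIMAP1, GIMAP2 and GIMAP5 lower. At least 2-fold higher on the log2(normalized count + 1) scale were 0 members in MOLM-14, 2 in NOMO-1 (GIMAP4 and GIMAP5) and 2 in SKM-1 (GIMAP4 and GIMAP6), beside the shares of all genes given above. GIMAP4 counts among the tested genes only through the NOMO-1 knockdown library, where it was high. At least 2-fold lower were 0, 0 and 1 in the same lines, and that 1 was GIMAP5 in SKM-1, at 0 reads against 1. The members' median log2 difference was 0.27 for MOLM-14, 0.47 for NOMO-1 and 0.15 for SKM-1, and that of all tested genes was 0.0, -0.00027 and -0.012 in the same lines. In bulk RNA, fewer cells expressing a gene and less of its RNA per cell cannot be told apart.

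**Figure D1:**
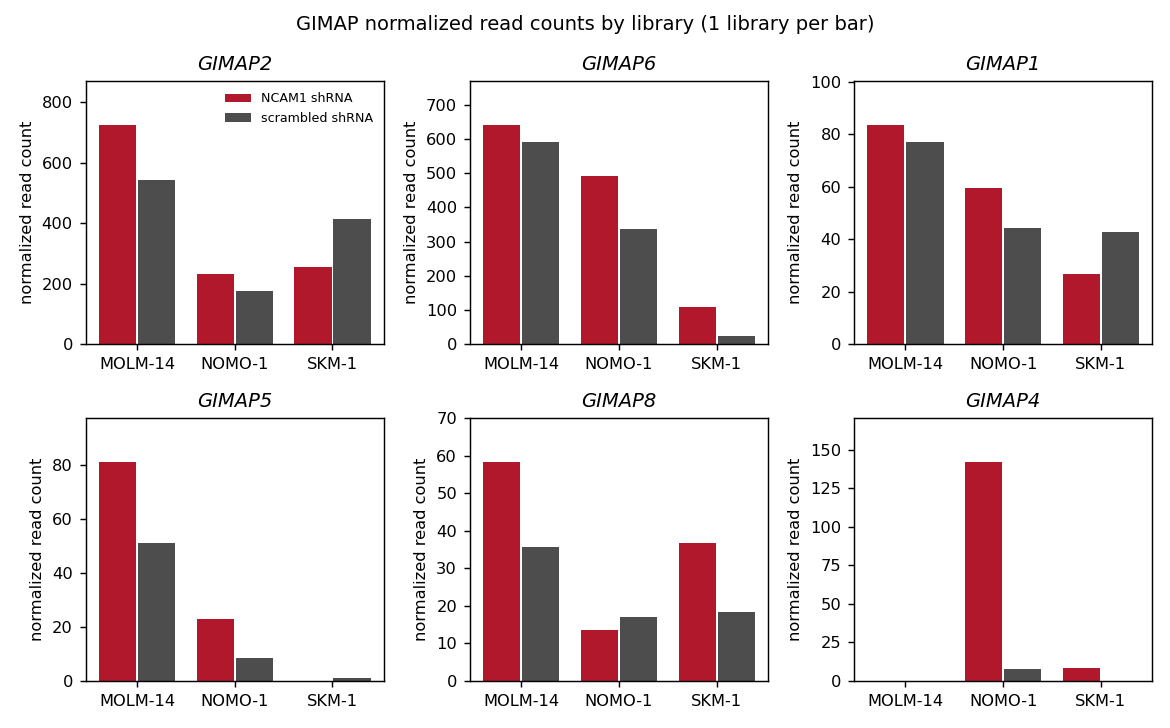
Normalized read counts (y axis, linear from 0, own scale per panel) of the 6 GIMAP genes in each cell line (x axis); each bar is 1 library, NCAM1 shRNA in red left of scrambled shRNA in grey, so there are no error bars. GIMAP4 stands at 142 in the NOMO-1 knockdown library and at 0 in both MOLM-14 libraries, and GIMAP2 is higher in the knockdown library of MOLM-14 and NOMO-1 and lower in that of SKM-1.

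GIMAP2 and GIMAP6 made up most GIMAP RNA once transcript length was taken into account. GIMAP2, a protein of the lipid droplet surface whose GTPase activity GIMAP7 can stimulate, averaged 270 ± 146 normalized counts per kilobase of its longest annotated transcript (SD, n = 6 libraries). GIMAP6, which binds the autophagy protein GABARAPL2, averaged 93.5 ± 65.1 per kilobase (SD, n = 6). GIMAP4 followed at 12.8 ± 27.6, GIMAP1 at 12.6 ± 4.94, GIMAP8 at 7.16 ± 4.08 and GIMAP5 at 5.75 ± 6.82. GIMAP1 stood above GIMAP5 in each of the 6 libraries, by 18.9 against 17.0 in the MOLM-14 knockdown library at the closest, while the SDs of GIMAP4, GIMAP8 and GIMAP5, which take in the differences between lines, overlapped. Per kilobase of coding sequence instead, GIMAP2 and GIMAP6 averaged 387 and 337, and GIMAP1 (60.5) and GIMAP5 (29.9) stood above GIMAP4 (25.6) and GIMAP8 (15.0), so the order below GIMAP6 depends on the length used. The order of GIMAP2 and GIMAP6 depends on it too: per coding kilobase GIMAP6 had 452 in the knockdown and 311 in the control library of NOMO-1, and GIMAP2 had 231 and 175.

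The make-up of the per-kilobase sum differed between the lines. By longest transcript, GIMAP2 took 70.1% of it in the knockdown library and 66.7% in the control library of MOLM-14, 42.7% and 53.5% in NOMO-1, and 79.1% and 93.2% in SKM-1. GIMAP6 took 22.9% and 26.8% in MOLM-14, 33.3% and 37.9% in NOMO-1, and 12.6% and 2.12% in SKM-1. GIMAP4 was the third part of it in a single library: 18.3% in the NOMO-1 knockdown library against 1.61% in its control. GIMAP2 took most of the sum in both SKM-1 libraries, and GIMAP6, GIMAP8 and GIMAP4 took larger shares in the knockdown library than in the control library. By coding length GIMAP6 took more than GIMAP2 in 3 libraries, with 49.3% against 25.2% in the knockdown and 55.6% against 31.3% in the control library of NOMO-1, and 43.9% against 43.4% in the MOLM-14 control library.

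**Figure D2:**
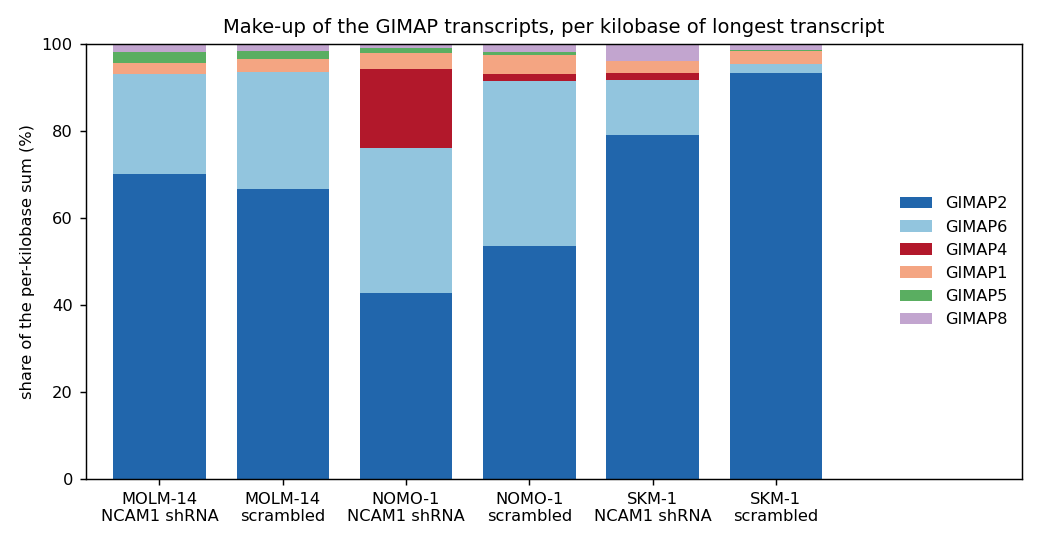
Share of the GIMAP per-kilobase sum (y axis, percent) taken by each member in each of the 6 libraries (x axis, NCAM1 shRNA left of scrambled shRNA within a line), stacked to 100%. By this length GIMAP2 is the widest band in every library, from 42.7% in the NOMO-1 knockdown to 93.2% in the SKM-1 control (by coding length GIMAP6 is the wider in both NOMO-1 libraries and the MOLM-14 control), and GIMAP4 forms a wide band in the NOMO-1 knockdown library alone.

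GIMAP2 had 726 normalized counts in the knockdown library against 543 in the control library of MOLM-14, 234 against 177 in NOMO-1 and 257 against 414 in SKM-1. Its level was highest in MOLM-14, and the knockdown library was the higher one in MOLM-14 and NOMO-1 and the lower one in SKM-1. The ratio was 1.34 in MOLM-14 (95% interval 1.19 to 1.503) and 1.32 in NOMO-1 (1.09 to 1.61). In SKM-1 GIMAP2 was 1.61-fold lower (1.38 to 1.88). The mean log2 difference over the lines was 0.045 ± 0.63 (SD, n = 3 lines), and it was 0.41 without the SKM-1 pair, -0.14 without the MOLM-14 pair and -0.13 without the NOMO-1 pair.

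GIMAP6 had 641 normalized counts in the knockdown library against 590 in the control library of MOLM-14, 491 against 337 in NOMO-1 and 110 against 25.4 in SKM-1. It was the higher one in the knockdown library of every line, and both SKM-1 libraries lay below all 4 others. The ratio was 1.09 in MOLM-14 (0.966 to 1.22), 1.46 in NOMO-1 (1.27 to 1.67) and 4.34 in SKM-1 (2.80 to 6.97). The SKM-1 value rests on 120 reads against 25. Its log2 difference there was 2.07, in a line where 15.7% of genes were at least 2-fold higher. The mean over the lines was 0.91 ± 1.03 (SD, n = 3 lines), and 0.33 without the SKM-1 pair.

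GIMAP4, which in mice promotes the death of T cells, had 142 normalized counts in the NOMO-1 knockdown library against 7.56 in the control library, or 156 reads against 8. It had 8.26 against 0 in SKM-1, or 9 reads against 0, and 0 against 0 in MOLM-14. GIMAP4 was thus at 0 reads in 3 libraries, under 10 reads in 2 and well above that in the NOMO-1 knockdown library. The NOMO-1 ratio was 18.8 (9.33 to 44.4), with a log2 difference of 4.07. In SKM-1 GIMAP4 was at least 2.71-fold higher, with the control library set to the 3-read floor, and the exact interval of that ratio began at 1.78. The mean log2 difference was 2.43 ± 2.14 (SD, n = 3 lines), and 1.61 without the NOMO-1 pair.

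GIMAP5, a protein of the lysosomal membrane needed for lymphocyte survival, had 81.4 normalized counts in the knockdown library against 51.3 in the control library of MOLM-14, 22.8 against 8.50 in NOMO-1 and 0 against 1.02 in SKM-1. Its level was highest in MOLM-14, with no overlap between lines, and SKM-1 held 0 and 1 reads, so no fold is given there. The ratio was 1.59 in MOLM-14 (1.09 to 2.34) and 2.68 in NOMO-1 (1.21 to 6.53), the second from 25 reads against 9. GIMAP1, which mice need to form and keep mature T and B cells, had 83.5 against 76.9 in MOLM-14, 59.3 against 44.4 in NOMO-1 and 26.6 against 42.7 in SKM-1. Its ratio was 1.09 in MOLM-14 (0.777 to 1.52), 1.34 in NOMO-1 (0.904 to 1.99) and 0.624 in SKM-1 (0.375 to 1.03).

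GIMAP8, the member with several G domains in 1 chain, had 58.5 normalized counts in the knockdown library against 35.7 in the control library of MOLM-14, 13.7 against 17.0 in NOMO-1 and 36.7 against 18.3 in SKM-1. NOMO-1 held the lowest level of the 3 lines and was the one line where the knockdown library was not the higher. The ratio was 1.64 in MOLM-14 (1.04 to 2.61), 0.805 in NOMO-1 (0.378 to 1.69) and 2.01 in SKM-1 (1.125 to 3.72). These rest on 15 to 56 reads per library.

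**Figure D3:**
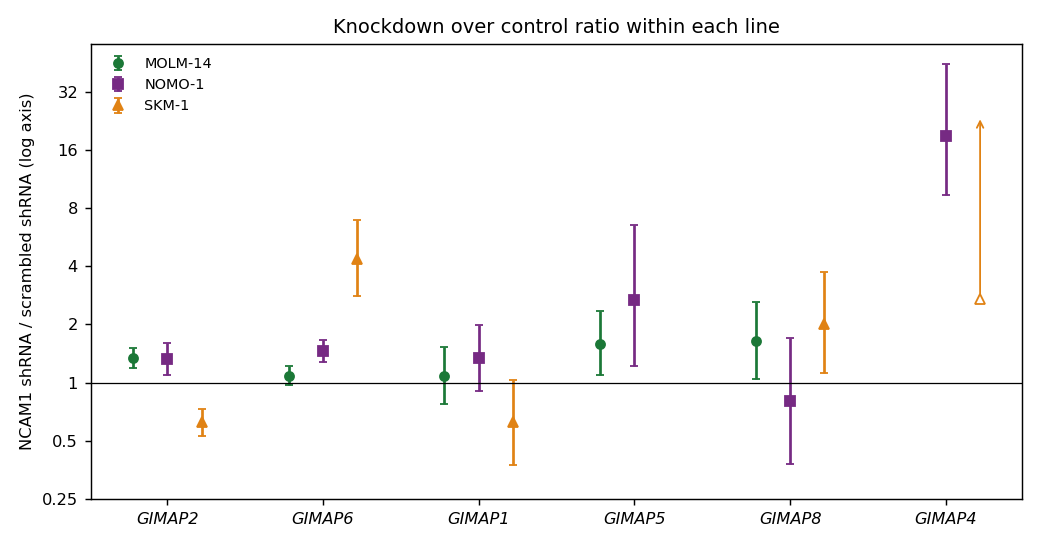
Ratio of normalized counts, NCAM1 shRNA over scrambled shRNA (y axis, log axis), for each GIMAP gene (x axis) in MOLM-14 (circles), NOMO-1 (squares) and SKM-1 (triangles); bars are exact conditional 95% intervals for counting error, the open triangle with an arrow is the lower bound for GIMAP4 in SKM-1, and pairs under 4 reads in all are not drawn. GIMAP4 in NOMO-1 (18.8) and GIMAP6 in SKM-1 (4.34) lie farthest above 1, while GIMAP2 lies on opposite sides of 1 in SKM-1 (0.622) and the other lines.

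Across the 6 libraries the members did not follow a single pattern. On the log2(normalized count + 1) scale GIMAP1 and GIMAP5, which share the read-through exons, had the highest Pearson r of any pair, 0.961, and the same rank order. GIMAP5 and GIMAP6 followed at 0.852 and GIMAP2 and GIMAP8 at 0.728, while GIMAP2 and GIMAP4 had the lowest, -0.754. These are descriptions over 6 libraries that fall into 3 lines. Among 14881 genes outside the cluster with a mean of at least 50, the 5 most like the GIMAP sum were LINC00476 (r = 0.995), ARL1 (0.993), a small GTPase of the Golgi, C12orf45 (0.992), RP11-12M9.3 (0.992) and TRIAP1 (0.992), an inhibitor of apoptosis induced by p53. ARL1 had 4019 normalized counts in the knockdown library against 3606 in the control library of MOLM-14, 2772 against 1988 in NOMO-1 and 1811 against 1783 in SKM-1. As many as 454 genes exceeded an r of 0.9, so these 5 are not set apart from many others.

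The flanking genes were set beside the members to see how far the pattern of the cluster reached along the chromosome. Of 16 flanking genes listed, 14 were matched and 12 tested. TMEM176B and TMEM176A, membrane protein genes next to GIMAP5, were lower in the SKM-1 knockdown library. So were GIMAP2, GIMAP1 and GIMAP5, the members on that side of the cluster, while GIMAP4, GIMAP6 and GIMAP8 were higher. By sign alone, the direction in SKM-1 changed inside the cluster, between GIMAP6 and GIMAP2. The sign is weakly based for some members there. GIMAP5 had 0 reads against 1, GIMAP4 had 9 against 0, and the GIMAP1 interval (0.375 to 1.03) included 1. TMEM176B had 84.6 normalized counts in the knockdown library against 2.23 in the control library of MOLM-14, 9.12 against 10.4 in NOMO-1 and 0 against 32.5 in SKM-1. The MOLM-14 ratio was 37.9 (10.2 to 318), from 81 reads against 2, and in SKM-1 TMEM176B was at least 11.8-fold lower with the knockdown library set to the 3-read floor, where the exact interval began at 9.06-fold. TMEM176A had 40.7 against 13.4 in MOLM-14, 4.56 against 1.89 in NOMO-1 and 0.918 against 8.13 in SKM-1. In both, the MOLM-14 knockdown library was the highest of the 6.

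On the GIMAP8 side, ZNF775, a zinc finger gene, had 616 normalized counts in the knockdown library against 591 in the control library of MOLM-14, 148 against 198 in NOMO-1 and 130 against 575 in SKM-1. REPIN1, a zinc finger protein tied to replication origins, had 4876 against 4311, 3574 against 3792 and 2575 against 5666 in the same order of lines. Farther out beyond TMEM176A, the amine oxidase gene AOC1 and the potassium channel gene KCNH2 were highest in NOMO-1, at 128 against 138 and at 816 against 735. NOS3, the endothelial nitric oxide synthase, was the one flanking gene at least 2-fold higher in the SKM-1 knockdown library, with 19.3 against 6.10. Over the 12 tested flanking genes, 1 was at least 2-fold higher and 7 at least 2-fold lower in SKM-1 (15.7% and 16.5% of all genes), none passed either limit in NOMO-1 (4.06% and 7.42%), and 2 were higher and 0 lower in MOLM-14 (3.56% and 4.03%). Of the remaining ones, ATG9B and SLC4A2 were among the 7 lower in SKM-1, with log2 differences of -1.03 and -1.02, and ABCB8, ASIC3 and CDK5 lay between -0.93 and 0.28 in all lines. ACTR3C and RARRES2 had mean counts of 1.17 and 0.305 and were not tested. The flanking genes' median log2 difference was -1.03 in SKM-1, beside 0.15 for the members, of which 3 were higher and 3 lower. Flanking genes and members share the same libraries, and the difference between their medians was not tested.

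**Figure D4:**
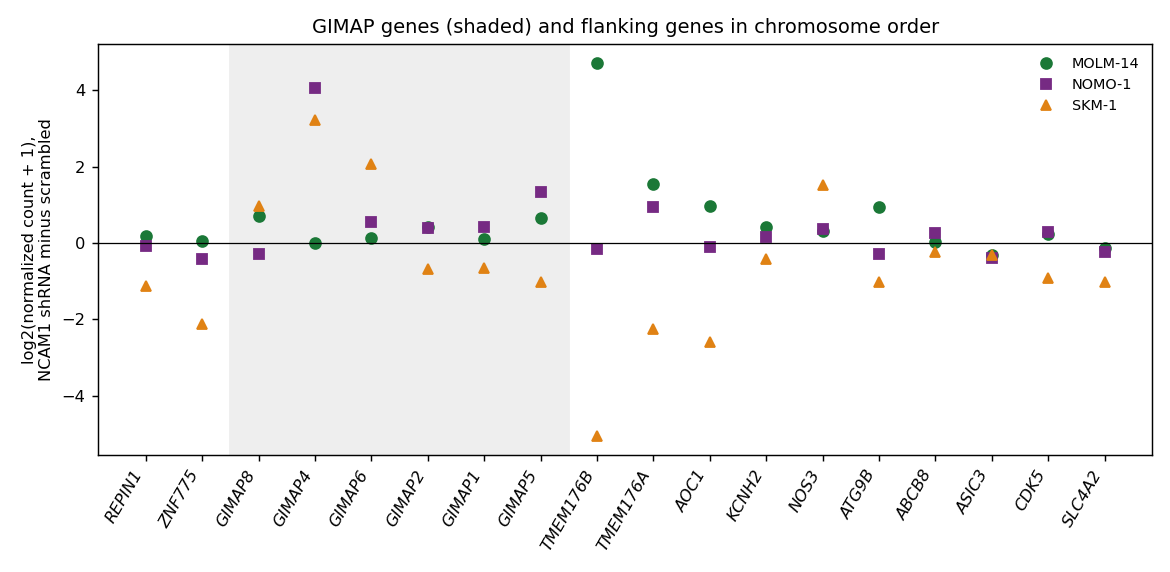
Difference in log2(normalized count + 1), NCAM1 shRNA minus scrambled shRNA (y axis), for the 6 GIMAP genes (shaded) and 12 tested flanking genes in chromosome order (x axis, evenly spaced, not to genomic scale), with 1 symbol per line. In SKM-1 (triangles) GIMAP8, GIMAP4 and GIMAP6 lie above 0. GIMAP2, GIMAP1 and GIMAP5 lie below it, as do both genes on the GIMAP8 side and TMEM176B and TMEM176A on the GIMAP5 side. The SKM-1 symbol of GIMAP5 rests on 0 reads against 1 and that of GIMAP4 on 9 against 0.

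GIMAP genes are best known from lymphocytes, though not confined to them, so lymphoid markers and factors were read in the same libraries. NOMO-1, whose knockdown library had the most GIMAP4 reads, also held T cell transcripts. CD3D, a chain of the T cell receptor complex, had 2961 normalized counts in the NOMO-1 knockdown library and 3789 in the control library, against 20.9 and 20.1 in MOLM-14 and 1.84 and 0 in SKM-1. GIMAP4 was also read in the SKM-1 knockdown library, at 9 reads, where CD3D had 2 reads. LCK, the T cell kinase, had 230 and 539 in NOMO-1 and at most 1.04 elsewhere, and GZMA, a granzyme of cytotoxic cells, 472 and 223 in NOMO-1 and at most 0.918 elsewhere. CD4, which monocytes also carry, ran the other way, with 654 and 1052 in NOMO-1 against 6987 and 5163 in MOLM-14. NKG7, a cytotoxic granule gene, lay between 720 and 1946 in every library. Of the 27 listed T and NK cell markers 25 were found and 14 tested. By limma, NOMO-1 was at least 2-fold above the mean of the other lines at an adjusted p under 0.05 for 7 of these 14 (8.01% of all genes) and below it for 1 (5.08%). SKM-1 was above it for 0 (7.4%) and below it for 9 (8.18%), and MOLM-14 was above it for 2 (6.62%) and below it for 4 (8.64%). CD3E, CD3G, LCK and GZMA, with at most 4.59 counts elsewhere, passed the filter only through the NOMO-1 libraries, where they were high. So did PRF1, with at most 15.6 elsewhere. CD3E, CD3G, LCK and GZMA were also called lower in SKM-1 and in MOLM-14, so the calls of the lines are not independent. The filter left 11 of the found markers untested. Leaving out either NOMO-1 library ended every call of this kind over all genes. Leaving out either MOLM-14 library left 6 of the 7 NOMO-1 calls (4.54% and 4.75% of all genes) and 5 or 7 of the 9 SKM-1 calls (4.19% and 4.66%). Leaving out either SKM-1 library left all 7 and all 9 and added up to 2, while the shares over all genes were 13.7% and 14.3% for NOMO-1 and 10.9% and 14% for SKM-1. Only the 2 libraries of a line stand as its replicates in this fit. The summed level of the T and NK list was 6198 in the knockdown library against 8431 in the control library of NOMO-1. CD3D was the largest part of both sums. Single markers went either way in this pair, with LCK lower and GZMA higher in the knockdown library. The part of these markers in the GIMAP4 values was not tested. CD2 had 8.21 against 2.83 in NOMO-1, and TRAC, the T cell receptor alpha constant gene, 243 against 677. Not all of the list was highest in NOMO-1: TRAC had 902 against 1677 in MOLM-14, IL2RB, an interleukin receptor chain, 127 against 211 there and 61.1 against 101 in NOMO-1, and CD247, the zeta chain of the receptor complex, 40.4 against 428 in SKM-1.

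Among B cell markers, MS4A1 (CD20) had 1988 normalized counts in the NOMO-1 knockdown library against 144 in its control library, a ratio of 13.8 (11.7 to 16.4), in the pair where GIMAP4 differed 18.8-fold. It had 5.22 against 0 in MOLM-14 and 0 against 0 in SKM-1, where GIMAP4 was also read in the knockdown library. Of the 10 tested genes of the B cell list, 2 were at least 2-fold higher and 2 at least 2-fold lower in the NOMO-1 knockdown library (4.06% and 7.42% of all genes), and their median log2 difference was 0.22. PAX5, the B lineage transcription factor, had 0 against 3.78 in NOMO-1 and 1032 against 1194 in MOLM-14, and BANK1, a B cell adaptor, 453 against 529 and 696 against 621. The summed level of the 12 B cell markers found was 3616 in the knockdown library against 1749 in the control library of NOMO-1, and 1628 against 1606 without MS4A1. In these libraries 1 and 0 of them were at 0 reads. In MOLM-14 the sum was 2213 against 2214, and in SKM-1 835 against 1596. The part of these markers in the GIMAP values was not tested.

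The lymphoid transcription factors were split in direction. Of 16 tested, 9 had a higher and 7 a lower mean over the lines, with a median of 0.052 on the log2 scale, beside -0.0072 for all genes. RUNX1 and IKZF1, the most abundant, were lower in the knockdown library of MOLM-14 and NOMO-1 and higher in that of SKM-1, with IKZF1 at 12364 against 8281 in SKM-1. GATA3, a T cell factor, had 29.2 against 10.4 in NOMO-1, and TBX21 0.912 against 6.61.

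The autophagy list was read because GIMAP6 binds GABARAPL2. GABARAPL2, a ubiquitin-like protein of autophagosomes, had 1911 normalized counts in the knockdown library against 1994 in the control library of MOLM-14, 2429 against 2872 in NOMO-1 and 3200 against 2918 in SKM-1, and the libraries of the 2 conditions overlapped. Its relative GABARAPL1 had 2204 against 213 in SKM-1, and SQSTM1, the autophagy receptor p62, 14208 against 2491. Over the 19 tested autophagy genes, 3 were at least 2-fold higher and 0 lower in SKM-1, beside 15.7% and 16.5% of all genes, and 0 passed either limit in MOLM-14 and NOMO-1. ATG5 and ATG7, of the conjugation machinery, had 2028 against 1244 and 1466 against 2721 in NOMO-1, and ATG13 had 3132 against 3240.

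In the BCL2 family, which GIMAP4 and GIMAP5 have been tied to, BCL2 itself was lower in the knockdown library of every line, with 7350 against 11887 in MOLM-14, 4256 against 10367 in NOMO-1 and 433 against 10320 in SKM-1. BCL2A1, a short-lived survival protein, had 136 against 203, 343 against 950 and 3055 against 68.1 in the same lines. MCL1 had 22805 against 11012 in SKM-1 and 8068 against 11022 in NOMO-1. Of 15 tested, 3 were at least 2-fold higher and 3 lower in SKM-1 (15.7% and 16.5% of all genes), and 0 and 2 in NOMO-1 (4.06% and 7.42%).

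Other GTPase families were set beside the GIMAP genes. Of 8 tested guanylate-binding and Mx genes, 4 were at least 2-fold higher and 3 lower in SKM-1 (15.7% and 16.5% of all genes), 1 higher and 1 lower in NOMO-1 (4.06% and 7.42%), and 3 higher and 0 lower in MOLM-14 (3.56% and 4.03%). Some of these rest on few reads: GBP1 counted as higher in MOLM-14 at 1 read against 0, and GBP4 as lower in SKM-1 at 1 against 3. GBP1, an interferon-induced GTPase, had 52.0 against 10.4 in NOMO-1 and 44.1 against 5.08 in SKM-1. GBP2 had 1707 against 4552 in NOMO-1 and 8047 against 2734 in SKM-1, and GBP3 552 against 546 and 1179 against 396. Of 11 septins tested, 2 were at least 2-fold higher and 4 lower in SKM-1, 1 higher and 1 lower in NOMO-1, and 0 in either direction in MOLM-14, beside the same shares of all genes. In NOMO-1 SEPT5 had 953 against 2993 and SEPT4, the septin counted as higher there, 4.56 against 0, or 5 reads against 0. SEPT2 and SEPT7, the most abundant, had 12313 against 9481 and 7781 against 9057 in that line.

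Myeloid markers were read beside the GIMAP6, GIMAP8 and GIMAP4 differences of the SKM-1 pair. Of 14 tested, 5 were at least 2-fold higher and 2 lower there (15.7% and 16.5% of all genes), the summed level of the 16 was 241415 in the knockdown library against 852873 in the control library, and 0 were at 0 reads in either. MPO, the peroxidase of granulocyte precursors, had 6166 against 728824, so it made up most of the control sum and set the direction of the sum. S100A9, a calcium-binding protein of mature myeloid cells, had 91617 against 1254. In NOMO-1 MPO had 15869 against 53986 and S100A9 28919 against 31402, and CD14, the monocyte receptor, 27.4 against 8.50. Their part in the GIMAP values was not tested.

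Endothelial cells also express GIMAP genes. Their cadherin gene CDH5 had at most 1.89 normalized counts in any library, and VWF, von Willebrand factor, had 7.31 against 72.5 in MOLM-14 and 2.74 against 35.9 in NOMO-1. EGFL7 and ENG, which blood cells carry as well, differed between the lines: EGFL7 had 145 against 65.8 in MOLM-14 and 315 against 623 in NOMO-1, and ENG 1583 against 1672 and 1743 against 3395. Of 11 endothelial markers found, 5 were tested, 3 of the 11 were at 0 reads in each NOMO-1 library, and the sum of the 11 was 1796 against 1873 in MOLM-14, 2300 against 4407 in NOMO-1 and 7296 against 5349 in SKM-1. Their part in the GIMAP values was not tested. Of the erythroid and megakaryocyte markers 7 were found and 4 tested, all 4 at least 2-fold lower in the NOMO-1 knockdown library (7.42% of all genes): GATA1 had 100 against 208, ITGA2B 244 against 506, GP9 12.8 against 45.3 and ALAS2 0.912 against 19.8.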

How the data were processed

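Messenger RNA libraries of 3 lines and 2 conditions were read as deposited. The deposited signal values are gene counts scaled by the authors with a size factor for each library. The log2 values are the authors' transformed counts, used only as an alternative. Per the submitters' processing notes, the tools were STAR, HTSeq 0.6.1p1 and DESeq2 1.12.4, with hg19 as the build; the sources used here do not give the gene annotation. Each column was a set of multiples of 1 step, from which whole reads were recovered for 100% of values (tolerance 0.001).

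Ratios carry exact conditional 95% intervals, and 0 reads were set to a floor of 3. Fold changes on the log2(normalized count + 1) scale understate those of low genes. Shares at 2-fold compare the 2 libraries of a line with no test. Calls over all genes came from limma 3.58.1 in R 4.3.3 (trend, two-sided, Benjamini-Hochberg, cell line as block, mean count of at least 10), tested on simulated data; edgeR 4.0.16 and DESeq2 1.42.0 were alternatives. Libraries are paired by cell line, and their deviations from the group means correlated at 0.850, 0.863 and 0.710 within lines. Nothing in the labels says that libraries of a line came from separate cultures, so its p-values measure the spread between these libraries. Lengths are of GENCODE 29 (GRCh38), and promoters of RefSeq (GRCh38.p14, all 7 members matched).

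Members, lists and tests were chosen with earlier results of these data known. Named from each list were the 2 genes with the highest mean and the 2 with the widest NOMO-1 difference, all flanking genes, and the 5 genes most like the GIMAP sum. Other list genes (CD3D, LCK, GZMA, CD33, SPI1, GABARAPL1, GABARAPL2, IL2RB, CD247, CD68 and S100A8) were named after their values were seen.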

Additional observations from a re-analysis of the deposited data

Results flagged for a closer look

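GIMAP2 differed in direction between the lines: its log2 difference, knockdown minus control, was 0.42 in MOLM-14 and 0.40 in NOMO-1, and -0.68 in SKM-1. Each line has 1 pair of libraries, and the difference between the lines was not tested.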

How the results depend on the processing

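The median over members of the mean log2 difference was 0.39, between 0.25 and 0.37 with 1 line's pair left out (without the MOLM-14 pair 0.25) and between 0.30 and 0.42 under other pseudocounts, scalings and the authors' transformed values. The sign of single members held in each line under these settings, except GIMAP4 in MOLM-14, at 0 reads, which became -0.026 on the authors' transformed values. Limma called 0 genes for knockdown under every alternative, including no replicate block (0 called, 141 at an unadjusted p under 0.05, against 877 with it) and each line left out, and DESeq2 called 43. Without the NOMO-1 pair 223 genes were at an unadjusted p under 0.05, and without the SKM-1 pair 1389. The share of genes at least 2-fold apart, 7.58% for MOLM-14, 11.5% for NOMO-1 and 32.2% for SKM-1, became 2.16%, 7.71% and 28.8% among genes with at least 100 counts, and 2.78%, 7.69% and 26.6% with a pseudocount of 8. Calls of a line against the others numbered 2987 for MOLM-14, 2562 for NOMO-1 (1670 with a mean of at least 50) and 3051 for SKM-1. Leaving out 1 library gave 0 to 5505, 0 to 4558 and 0 to 5386 calls in these lines, with 0 without either NOMO-1 library; such fits have a lone library in 1 line, assumed to vary like the others. GIMAP2 per length was 2.89 times GIMAP6 by longest transcript and 1.15 times by coding length. Depth limits GIMAP4, GIMAP5 and GIMAP8 most, at 0 to 156 reads.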
